A study of Mus musculus with 4 samples.

Results

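The 10 genes described here take up glucose and turn it into lactate, and they are the glucose transporters Slc2a1 and Slc2a3 and the glycolytic enzymes Hk1, Hk2, Pfkl, Pfkp, Aldoa, Pgk1, Eno1 and Ldha. They were chosen by their symbols, and all 10 were found among the 22718 genes of the RNA-seq tables. RNA-seq was done on 1 library of wild type (WT) mouse embryonic stem (ES) cells and 1 library labelled Prep1-/- (KO), both of the C57BL/6 strain and both grown with leukemia inhibitory factor. Prep1, encoded by Pknox1, is a homeodomain transcription factor, and the KO library came from the line named KO2, 1 of the study's Prep1-/- lines. Prep1 ChIP-seq in wild type ES cells gave a list of 3902 peaks from 1 immunoprecipitation compared with input DNA, and the labels give C57BL/6 as its strain but R1 as its ES cells.

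ES cells make much of their ATP by glycolysis even with oxygen present, and naive ES cells are known to respire more than primed cells, which depend on glycolysis almost entirely. Glucose enters through the facilitative transporters of the Slc2a family, is trapped as glucose-6-phosphate by hexokinase, and is committed to glycolysis by phosphofructokinase. Several steps are catalysed by isoenzymes from different genes, which differ in affinity and regulation, and the hypoxia-inducible factors and Myc are known activators of most of them.

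The values are the deposited RPKM, which is the reads scaled by gene length and by library size, and the deposited read counts, which summed to 29596294 in the WT library and 25717811 in the KO library. KO RPKM divided by WT RPKM is called the KO/WT ratio. Each genotype has a single library, so no difference could be checked against replicates and no p-value is given. The 95% interval after each ratio is an exact (Clopper-Pearson) interval that covers counting error only. The read sums above are larger than the reads per sample that the paper states, and the reason was not checked. If fragments were counted more than once, the intervals are too narrow. A gene was called lower with a ratio below 0.7 and a WT RPKM above 1, and higher with a ratio above 1.5 and a KO RPKM above 1. Pknox1 had 505 reads in the WT library and 332 in the KO library, a ratio of 0.736 (0.638 to 0.846). Within the RNA-seq data, the genotype of the KO library thus rests on its label. By immunoblot, the paper reported loss of Prep1 protein in its Prep1-/- lines, KO2 among them.

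The summed level of the 10 genes was nearly the same in both libraries, while the mix of isoenzyme genes differed. The RPKM of the 10 genes summed to 2721 in the WT library and 2704 in the KO library, and they took 0.517% and 0.522% of all reads. The ratio of these sums was 0.994, and 1.04 with the TMM scaling of edgeR. Aldoa, with the largest level, was among the genes with a ratio above 1, and the 20 other glycolytic enzyme genes summed to an RPKM of 1422 and 1296, a ratio of 0.911. Pfkl was the 1 gene of the 10 called lower and Pfkp the 1 called higher, against 13.3% and 6.91% of the 14254 genes that exceeded an RPKM of 1 in at least 1 library. Both encode phosphofructokinase. The counting interval lay below 1 for 5 of the 10 genes (Slc2a3, Pfkl, Pgk1, Eno1 and Ldha; 36.3% of all genes) and above 1 for 4 (Slc2a1, Hk2, Pfkp and Aldoa; 20.7% of all genes), and that of Hk1 held 1. With TMM factors, or with the median ratio of the expressed genes set to 1, the interval of Pgk1 also held 1 and 4 genes lay below it. The median ratio of the 10 genes was 0.913 (log2 -0.13), beside 0.954 (log2 -0.07) over all 14254 genes. The shares of the 10 genes past a threshold thus lay near those of all genes. Most of these genes have many reads, so a second background was the 7739 genes with at least 599 WT reads. That is the count of the least read gene of the 10. The ratios of the 7739 genes had a 10th percentile of 0.728 and a 90th percentile of 1.19, and 7.74% were lower and 1.55% higher. This filter uses the WT library only, so it leaves out genes with few WT reads that are raised in KO. High ratios can therefore be rarer in this background, and the percentiles given below share that limit.

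**Figure D1:**
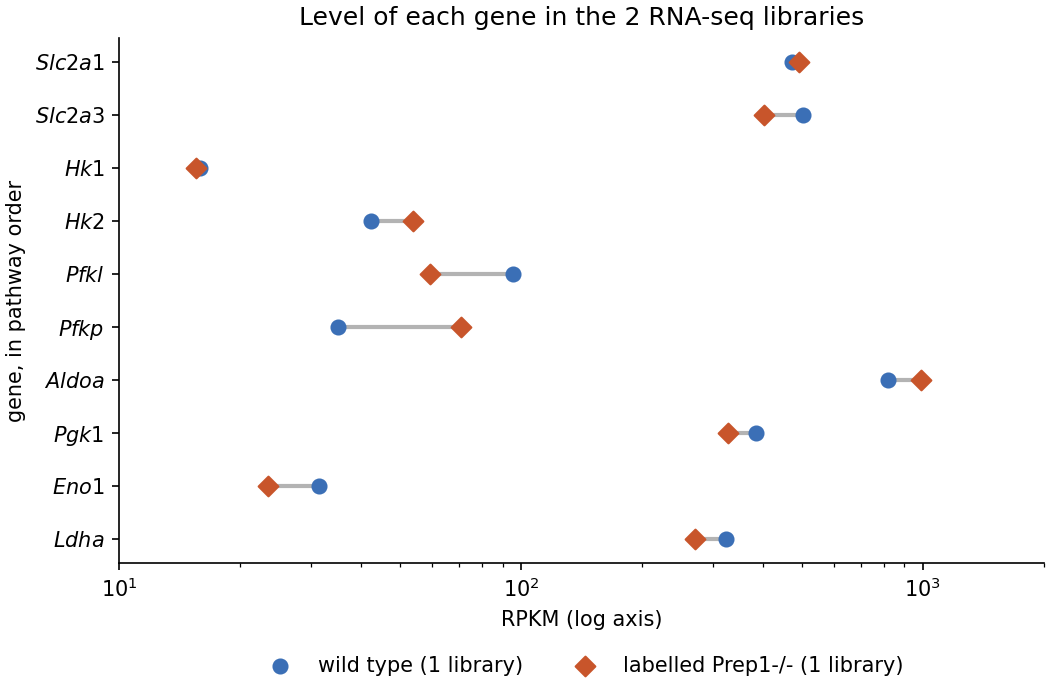
RPKM of each of the 10 genes on a log axis, with circles for the WT library and diamonds for the library labelled Prep1-/-, 1 library each. The levels run from 15.5 for Hk1 to 989 for Aldoa, and the markers of Pfkl and Pfkp are the farthest apart, in opposite directions.

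Slc2a1 and Slc2a3 had high levels in both libraries, and the order of the pair by RPKM differed between them. Slc2a1 (ENSMUSG00000028645, chr4:118781316-118809935, plus strand, mm9) encodes GLUT1, the widespread basal glucose transporter. It had 30760 WT and 28665 KO reads, which is an RPKM of 472 and 492 and a ratio of 1.04 (1.03 to 1.06). Slc2a3 (ENSMUSG00000003153, chr6:122677827-122751658, minus strand) encodes GLUT3, a transporter of high affinity known from neurons and the early embryo. Its reads were 52557 in the WT library and 37467 in the KO library, its RPKM 504 and 402, and its ratio 0.797 (0.787 to 0.808). By RPKM, Slc2a3 was thus above Slc2a1 in the WT library and below it in the KO library. By reads, Slc2a3 was above Slc2a1 in both, so the changed order rests on the division by gene length. The ratio of Slc2a1 to Slc2a3 reads differed 1.31-fold between the libraries, with a counting interval of 1.28 to 1.33 (approximate, from the 4 read counts), and such a ratio of 2 genes within each library does not depend on how the libraries are scaled. Together they held nearly all RPKM of the 11 Slc2a genes listed, with Slc2a3 at 50.7% in WT and 44.1% in KO and Slc2a1 at 47.5% and 53.9%. The next was Slc2a8, at 1.29% and 1.58%. Slc2a4, the insulin-responsive GLUT4, was called lower at a low level, with 197 and 113 reads, an RPKM of 2.72 and 1.75 and a ratio of 0.644 (0.504 to 0.812).

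Hexokinase transcripts came mainly from Hk2 in both libraries. Hk1 (ENSMUSG00000037012, chr10:61731603-61842656, minus strand) encodes the housekeeping hexokinase and Hk2 (ENSMUSG00000000628, chr6:82675019-82724448, minus strand) the inducible one, and both enzymes can bind mitochondria. Hk1 had 1534 and 1343 reads in WT and KO, an RPKM of 15.8 and 15.5 and a ratio of 0.979 (0.909 to 1.05), and the ratio lay just above 1 with other scalings of the libraries. Hk2 had 6306 and 7176 reads, an RPKM of 42.3 and 53.8 and a ratio of 1.27 (1.23 to 1.32), which is under the threshold of 1.5 but at percentile 94.5 of the 7739 well-read genes. The share of Hk2 in the step was 72.4% in WT and 76.9% in KO, and the Hk2 to Hk1 read ratio differed 1.30-fold (1.20 to 1.41).

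Hk1 also held a Prep1 peak inside the gene, at chr10:61745267-61745837, with a fold enrichment of 16 over input, below the median of 21 over all peaks. A fixed form of the consensus decamer of Prep1, TGANTGACAG, was searched on both strands of the peaks. The paper used a motif program and reported its motif in a larger share of the peaks than matched here with up to 1 mismatch. A peak without a match here can therefore still hold the motif of the paper. The Hk1 peak had no exact match but 2 matches with 1 mismatch, A3T in one and A7G in the other, with positions counted from 1 at the 5′ end of the decamer and the base of the consensus first. The match nearer the peak centre, 59 bp from it, is shown in capitals on the minus strand within chr10:61745582-61745641 of mm9, to compare with the exact match at Pfkl below. No annotated exon overlaps these bases, which lie in an intron of Hk1. The match in capitals, with A7G, has the same bases as the Prep1 site that the paper reports at the Fgf4 promoter.

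Hk1 peak: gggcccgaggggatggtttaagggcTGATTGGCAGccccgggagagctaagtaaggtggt

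Phosphofructokinase, the committing step, had nearly the same summed RPKM in both libraries, while its leading gene differed. Pfkl (ENSMUSG00000020277, chr10:77449692-77472828, minus strand) encodes the liver-type subunit and Pfkp (ENSMUSG00000021196, chr13:6579014-6648023, minus strand) the platelet-type subunit of the tetramer. Pfkl had 4992 WT and 2777 KO reads, an RPKM of 95.3 and 59.3, and a ratio of 0.622 (0.594 to 0.652), at percentile 3.23 of the well-read genes. Pfkp had 1797 WT and 3250 KO reads, an RPKM of 35.0 and 70.8, and a ratio of 2.02 (1.91 to 2.14), at percentile 99.8. Pfkm, the muscle-type subunit, had 952 and 954 reads, an RPKM of 17.9 and 20.1 and a ratio of 1.12 (1.02 to 1.23). Pfkl was therefore the first gene of the step by RPKM in WT and Pfkp in KO. The share of Pfkl was 64.3% in WT and 39.5% in KO, that of Pfkp 23.6% and 47.1%, and that of Pfkm 12.1% and 13.4%. The summed RPKM of the step was 148 and 150, a ratio of 1.01. Read against each other, Pfkp to Pfkl differed 3.25-fold between the libraries (3.02 to 3.50), and Pfkm to Pfkl and Pfkp to Pfkm 1.80-fold each. The gene length behind the RPKM was taken relative to the longest annotated coding transcript and scaled to the median expressed gene. It was 54.0% for Pfkl and 47.6% for Pfkp, so their levels rest on like corrections. The ratio of Pfkl kept its call when each chromosome's median was set to 1 (0.674), and so did that of Pfkp (2.10).

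**Figure D2:**
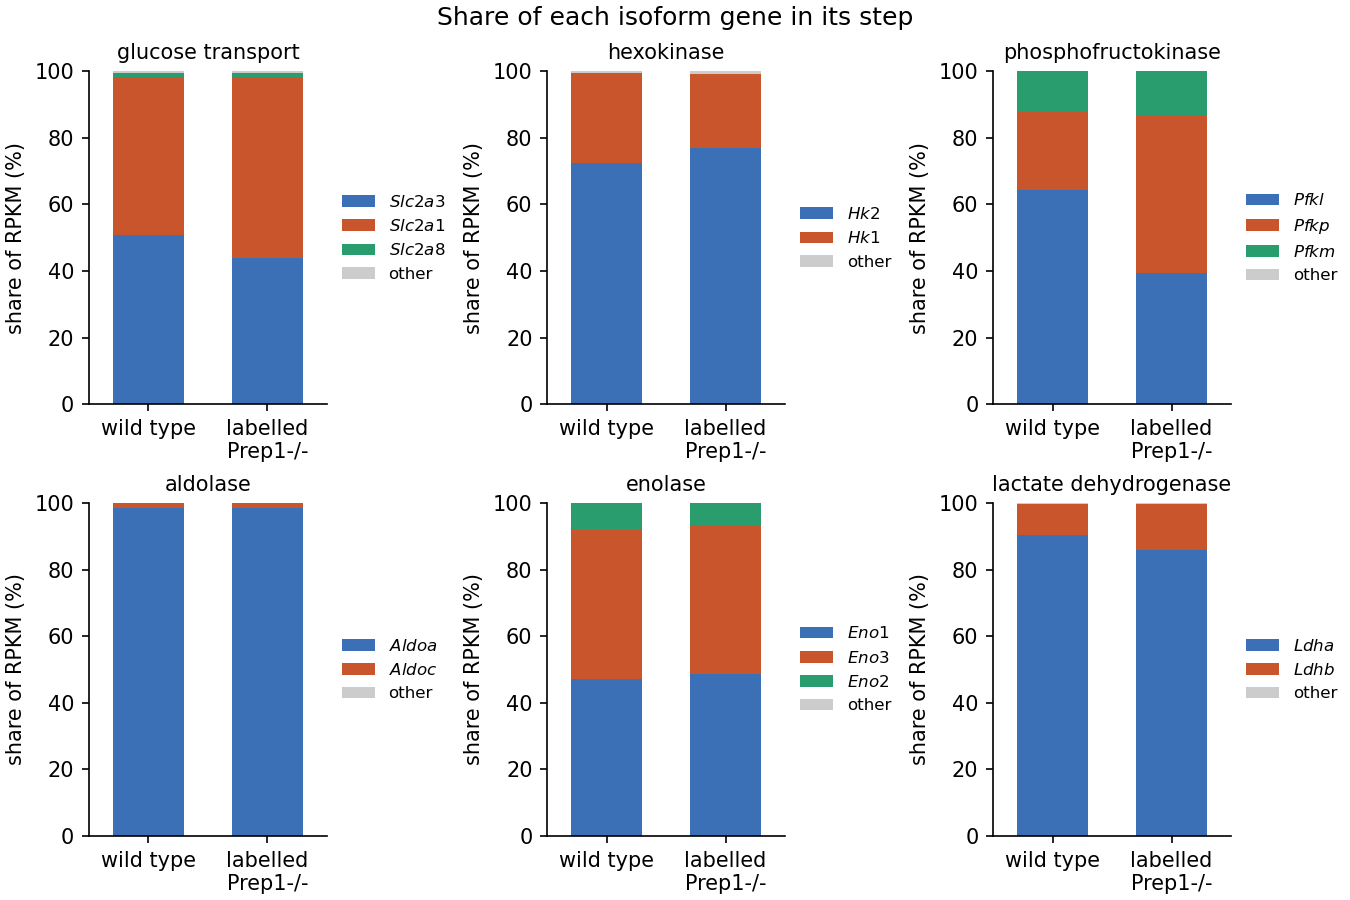
Share of each gene in the summed RPKM of its step, in percent, in the WT library and the library labelled Prep1-/-. Phosphofructokinase differs most, with Pfkl at 64.3% and 39.5% and Pfkp at 23.6% and 47.1%, while aldolase is 98.6% Aldoa in both libraries.

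The start of Pfkl lay under a Prep1 peak. The peak, chr10:77471936-77473171, had a fold enrichment of 82, at percentile 83.4 of all peaks, and its centre was 1 bp from the start of the main transcript, Pfkl-001, at 77472552. It held 1 exact match to the decamer, 18 to 27 bases before that start and on the plus strand, opposite to the gene. An exact match was found in 24.3% of the 3902 peaks over their whole length, in 23.1% within the 300 bases at their centres, and in 0.733% of 45969 promoters of coding transcripts (250 bases before to 50 after the start). The 100 bases before the Pfkl-001 start, chr10:77472553-77472652 on the minus strand of mm9, are printed in the direction of the gene to show how near to the start the match lies, with the decamer, here in reverse complement, in capitals. No annotated exon overlaps them.

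Pfkl start: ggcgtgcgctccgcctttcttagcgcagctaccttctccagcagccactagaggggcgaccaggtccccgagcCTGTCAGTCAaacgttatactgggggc

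No peak lay near Pfkp, the gene that was higher, and the closest was 2040 kb from its main start.

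Aldolase was nearly all Aldoa (ENSMUSG00000030695, chr7:133938748-133944265, minus strand), which encodes the ubiquitous enzyme that splits fructose-1,6-bisphosphate. Aldoa had the highest RPKM of the 10 genes in both libraries, 817 and 989 from 37358 and 40438 reads. Its ratio was 1.21 (1.19 to 1.23), under the threshold and at percentile 91.5 of the well-read genes. Aldoa held 98.6% of the RPKM of the step in both libraries, and the read ratio of Aldoc to Aldoa did not differ beyond its interval (0.961-fold, 0.864 to 1.07).

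Pgk1 and Eno1 act in the second part of glycolysis, and both had few reads for genes of this kind. Pgk1 (ENSMUSG00000062070, chrX:103382439-103399038, plus strand) encodes phosphoglycerate kinase, which makes the first ATP of the pathway. It had 599 WT and 456 KO reads, an RPKM of 386 and 328, and a ratio of 0.852 (0.752 to 0.963). Eno1 (ENSMUSG00000063524, chr4:149610830-149622988, plus strand) encodes the widespread enolase, which makes phosphoenolpyruvate. It had 941 and 627 reads, an RPKM of 31.5 and 23.5, and a ratio of 0.745 (0.672 to 0.825), the nearest to the threshold of 0.7 among those of the 10 genes that were not called. Eno3, the muscle-type enolase, had 1068 and 684 reads and a ratio of 0.716 (0.650 to 0.789), not past the threshold. Eno2, the neuronal enolase, was called lower, with 557 and 308 reads and a ratio of 0.619 (0.536 to 0.712). The summed RPKM of the 3 enolases was 66.9 in WT and 48.3 in KO, a ratio of 0.722, the lowest of the steps with a gene among the 10. The share of Eno1 in it was nearly the same, 47.0% and 48.6%, and the Eno3 to Eno1 read ratio did not differ beyond its interval (0.961-fold, 0.836 to 1.10). The shares depend on the relative length behind the RPKM, which was 56.7% for Eno1, 87.6% for Eno3 and 141% for Eno2.

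The levels of Pgk1 and Eno1 could be uncertain, as most of their sequence is repeated in the genome. Of the windows of 50 bases, the read length, in their main transcripts, 92.8% for Pgk1 and 72.2% for Eno1 occurred again without mismatch elsewhere in mm9. The fraction was 32.0% for Ldha, 7.25% for Aldoa, 0.217% for Pfkl and 0 for Slc2a1, Slc2a3, Hk1, Hk2 and Pfkp. Pgk1 had 2 and Eno1 3 other loci that match at least 50% of the transcript with at least 95% identity, the 5 such loci found for the 10 genes. On the relative scale used for Pfkl and Pfkp, the length behind the RPKM was 3.28% for Pgk1 and 56.7% for Eno1. The ratio is not changed by the length, which is the same for both libraries, but the level per length is, and reads of the copies could be shared with the genes. The authors aligned reads to a predefined set of transcripts, and whether that set held the copies was not checked. How far shared reads moved the ratios of Pgk1 and Eno1 was not tested. Pgk1 is also X-linked, where the median ratio of 548 genes was 1.08, and relative to it the ratio of Pgk1 was 0.786. The lines differ on chromosome Y as well, where Ddx3y, Eif2s3y, Uty and Jarid1d were listed with 0 reads each in WT and 310, 293, 285 and 74 in KO.

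**Figure D3:**
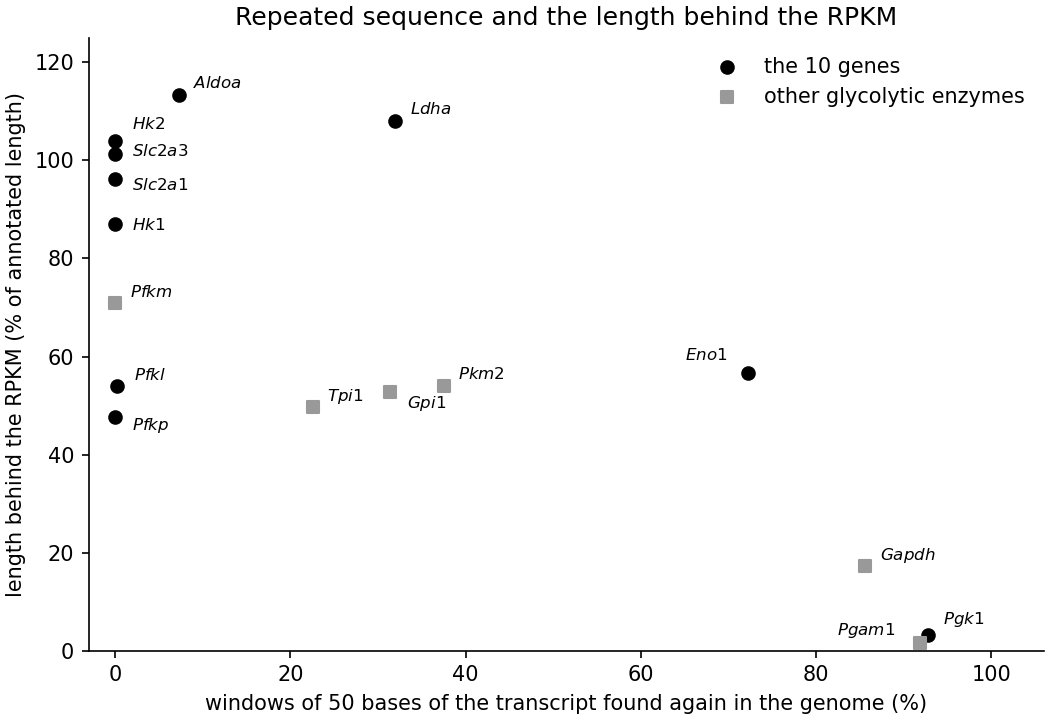
Share of the 50-base windows of each main transcript that occur again in the genome, in percent, against the gene length behind the RPKM. The length is a percent of the annotated length, scaled to the median expressed gene. Circles are the 10 genes and squares 6 other glycolytic enzymes. Pgk1 lies with Pgam1 and Gapdh at the lower right, with 92.8% of windows repeated and a length of 3.28%, while the transporters and hexokinases lie at 0% repeated.

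Prep1 peaks lay at the starts of both genes. The Pgk1 peak, chrX:103381874-103382753, had a fold enrichment of 117 and its centre was at -126 bp from the start. The Eno1 peak, chr4:149610684-149611912, had a fold enrichment of 120, the highest for the 10 genes, and its centre was at 237 bp from the start of Eno1-001. Unlike the Pfkl peak, neither held the decamer with up to 1 mismatch, which 63.4% of all peaks did. The bases just before these starts are printed for comparison with Pfkl, as chrX:103382339-103382438 for Pgk1 and chr4:149610981-149611060 for Eno1, both on the plus strand of mm9 and in no annotated exon. Capitals mark ACGTG or GCGTG, the core bound by hypoxia-inducible factors, on either strand.

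Pgk1 start: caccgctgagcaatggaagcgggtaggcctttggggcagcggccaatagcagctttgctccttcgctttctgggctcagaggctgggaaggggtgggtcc

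Eno1 start: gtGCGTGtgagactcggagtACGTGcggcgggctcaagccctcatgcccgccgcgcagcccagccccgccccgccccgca

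In the longer window of 250 bases before to 50 after the main start, this core was matched 8 times at Ldha, 5 times at Eno1, 4 times at Pfkp, 2 times each at Slc2a1, Hk2 and Pgk1, and 1 time each at Pfkl and Aldoa, where matches on opposite strands may overlap. It was not matched at Slc2a3 or Hk1. These 8 genes are 80% of the 10, beside 49.3% of the 45969 promoters of coding transcripts, which include alternative starts. The genes with the core thus included those that were higher and those that were lower in the KO library.

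Ldha (ENSMUSG00000063229, chr7:54096845-54110997, plus strand) encodes the subunit of lactate dehydrogenase that favours the reduction of pyruvate to lactate. It had 16037 WT and 12010 KO reads, an RPKM of 323 and 270, and a ratio of 0.837 (0.818 to 0.857). Ldhb, whose subunit favours the reverse reaction, had 626 and 725 reads, an RPKM of 33.7 and 43.7 and a ratio of 1.29 (1.16 to 1.44). Neither passed a threshold, but the Ldhb to Ldha read ratio differed 1.55-fold (1.39 to 1.73). The share of Ldha in the step was 90.4% in WT and 85.9% in KO. The relative length behind the RPKM was 108% for Ldha but 54.8% for Ldhb, and the shares depend on it. Ldhb to Ldha was 0.105 in WT and 0.162 in KO by RPKM, but 0.0390 and 0.0604 by reads.

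**Figure D4:**
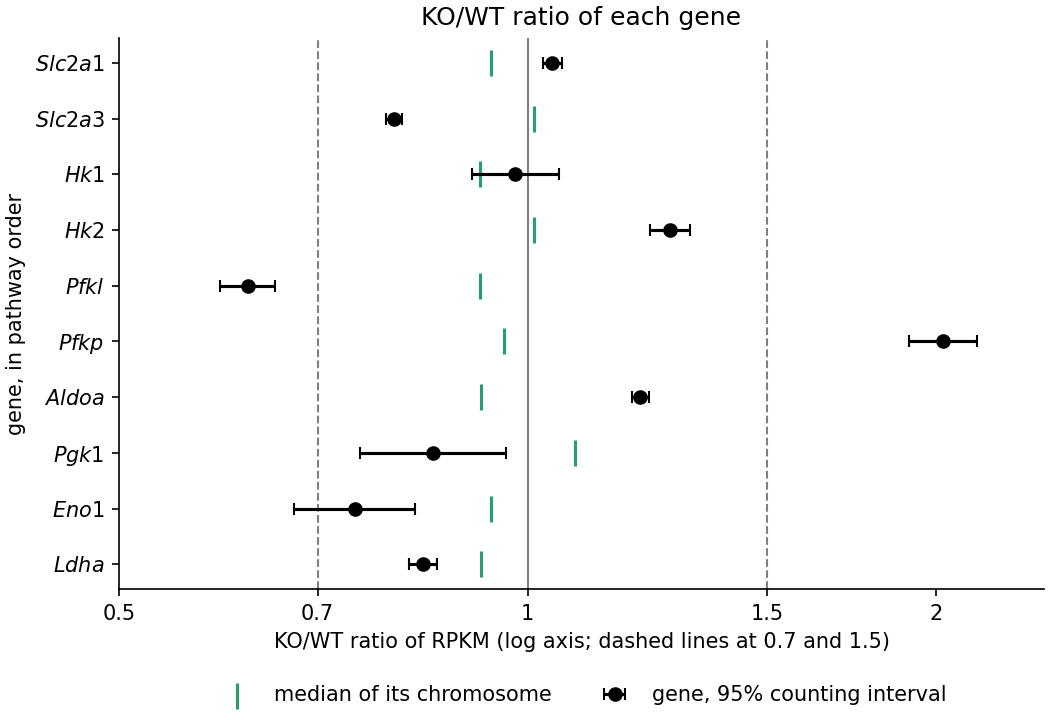
KO/WT ratio of RPKM for each of the 10 genes on a log axis (points), with the exact 95% counting interval (bars), the thresholds of 0.7 and 1.5 (dashed) and the median ratio of the gene's chromosome (ticks). Only Pfkl, at 0.622, and Pfkp, at 2.02, lie past a threshold, and the intervals do not include variation between cultures.

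In the rest of the pathway, more genes had a ratio below 1 than above 1. Of 20 other glycolytic enzyme genes, 13 had an RPKM above 1, with 9 ratios below 1 and 4 above. The counting interval lay below 1 for 4 of them and above 1 for 4. Their median ratio was 0.896, beside 0.954 over all 14254 genes. Of the 13, 3 were lower (Eno2, Pklr and Pgam1) and 0 higher, beside 13.3% and 6.91% of all genes. Pgam1, phosphoglycerate mutase, rests on 16 and 7 reads, and 91.9% of its windows are repeated, so that its ratio of 0.526 (0.170 to 1.26) is not resolved by its reads. Pkm2, pyruvate kinase, had the highest RPKM of the pathway in the WT library, 1090, with 977 in KO and a ratio of 0.896 (0.882 to 0.910). That rank depends on the relative length behind the RPKM, which was 54.1% for Pkm2 and 113% for Aldoa. By reads, Pkm2 (34076 and 27304) was below Aldoa (37358 and 40438), and 37.5% of the Pkm2 windows are repeated. Gpi1, the isomerase, and Tpi1, triosephosphate isomerase, had ratios of 0.989 (0.935 to 1.05) and 0.981 (0.907 to 1.06), and Gapdh 0.895 (0.746 to 1.07). Gapdh rests on 275 and 220 reads, and 85.6% of its windows are repeated. Of 11 other glucose transporters, Slc5a1 and Slc5a2 among them, 3 had an RPKM above 1, and Slc2a4 was lower.

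Neighbouring steps had few or no genes past a threshold, beside 13.3% lower and 6.91% higher among all 14254 genes. Bpgm, which diverts 1,3-bisphosphoglycerate to the 2,3 form, was the 1 of 9 measured regulators called lower, with 560 and 290 reads and a ratio of 0.580 (0.501 to 0.668). Txnip, an inhibitor of glucose uptake through GLUT1, had a ratio of 1.47 (1.42 to 1.53), just under the threshold. Pfkfb3, which makes the activator of phosphofructokinase, had one of 0.802 (0.762 to 0.844). None of 4 measured genes for lactate transport was called, and Slc16a1 and Slc16a3, which encode the carriers MCT1 and MCT4, had ratios of 1.01 (0.966 to 1.06) and 1.16 (1.11 to 1.21). Of 12 measured genes for the entry of pyruvate into mitochondria, Pdk4, an inhibitor of pyruvate dehydrogenase, was higher (103 and 184 reads, 1.99, 1.56 to 2.57) and Pcx, pyruvate carboxylase, lower (743 and 456 reads, 0.687, 0.609 to 0.772). In the pentose phosphate pathway, 9 genes were measured. H6pd was higher at 1.60 (1.51 to 1.69) and Pgls lower at 0.632 (0.595 to 0.671), and Pgls lies on chromosome 8, where the median ratio of 702 genes was 0.779. Of 6 genes of gluconeogenesis, 2 had an RPKM above 1 and 0 were called.

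The Hif and Myc factors, known activators of these genes among them, differed from each other. Hif1a had 4069 and 3906 reads and a ratio of 1.07 (1.03 to 1.12), and Myc 5817 and 5327 reads and a ratio of 1.02 (0.986 to 1.06). Epas1, which encodes HIF-2alpha, was higher, with 1402 and 3226 reads, an RPKM of 14.9 and 38.3, and a ratio of 2.57 (2.42 to 2.74). Mycn had a ratio of 1.37 (1.32 to 1.41). Of the 14 genes measured in this list, 1 was higher and 3 were lower, beside 6.91% and 13.3% of all 14254 genes. The lower ones were Hif3a (0.541, 0.433 to 0.666), Arnt2 (0.673, 0.570 to 0.790) and Mlxipl (0.581, 0.486 to 0.690), the last encoding the glucose-sensing factor ChREBP. The list also holds genes that are not activators, such as Egln1, Egln2, Egln3 and Hif1an. Of 11 measured genes outside glycolysis that hypoxia is known to induce, 2 were lower (Ddit4, 0.614, and Adm, 0.411, the latter with 48 and 17 reads) and 1 higher (Ankrd37, 1.90, with 32 and 55 reads), with a median ratio of 0.801.

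Markers of cell state moved between the libraries in which these genes were measured. The 6 ES cell core genes were present in both, with Pou5f1, which encodes Oct4, at an RPKM of 323 and 360. All 6 had a ratio above 1, 5 with an interval above 1, and 0 were called. Their summed RPKM was 1842 in WT and 2048 in KO. The summed RPKM of 11 naive pluripotency genes was 653 in WT and 839 in KO, with Klf4, Prdm14 and Nr0b1 called higher. Of these 11, 9 had a ratio above 1 and 2, Zfp42 and Dppa3, below 1. The summed RPKM of 11 formative and primed epiblast genes was 235 and 231, mostly Dnmt3b (131 in each library), with Otx2 called higher. Of the 10 with an RPKM above 1, 4 had a ratio above 1 and 6 below 1. The 1 other, Fgf5, had 44 and 12 reads and a ratio of 0.323 (0.147 to 0.587). Of 7 trophectoderm genes 5 were lower (summed RPKM 806 and 481), mostly Krt8 and Krt18 by level, and of 8 primitive endoderm genes 3 were lower (12.3 and 6.17). The 8 fibroblast feeder genes summed to 25.0 and 30.8, with 1 of them at 0 reads in WT. In bulk RNA, fewer cells of a type and less RNA per cell cannot be told apart, and the part of these markers in the values of Pfkl, Pfkp and the other genes was not tested.

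Prep1 binding was compared with the RNA ratios over the whole set. A peak inside the gene or within 20 kb of the start of a coding transcript was found for 5 of the 10 genes (Slc2a3, Hk1, Pfkl, Pgk1 and Eno1), beside 27.9% of 12150 expressed genes. A peak overlapping the region from 500 bp before to 100 bp after a start was found for 3 (Pfkl, Pgk1 and Eno1), beside 12.8%. The Slc2a3 peak, chr6:122760599-122761649, had a fold enrichment of 79 and lay at -9466 bp from the nearest annotated start of Slc2a3 but at -68361 bp from that of its main transcript, and was 8808 bp from Foxj2. It held no match to the decamer with up to 1 mismatch. The peaks nearest to the main starts of the other genes were 33.2 kb away for Aldoa, 50.3 kb for Ldha, 65.5 kb for Slc2a1, and 347 kb for Hk2. The 3 genes with a peak at a start had ratios of 0.622, 0.745 and 0.852, with a median of 0.745, and the other 7 a median of 1.04. Over all expressed genes the medians were 0.920 for the 1555 with such a peak and 0.953 for the 10595 without, and 15.0% and 12.0% were lower. The copies of Pgk1 and Eno1 could make their ratios uncertain, which was not tested. Pfkl, with 0.217% of its windows repeated, is the 1 gene of the 3 without that possible limit.

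**Figure D5:**
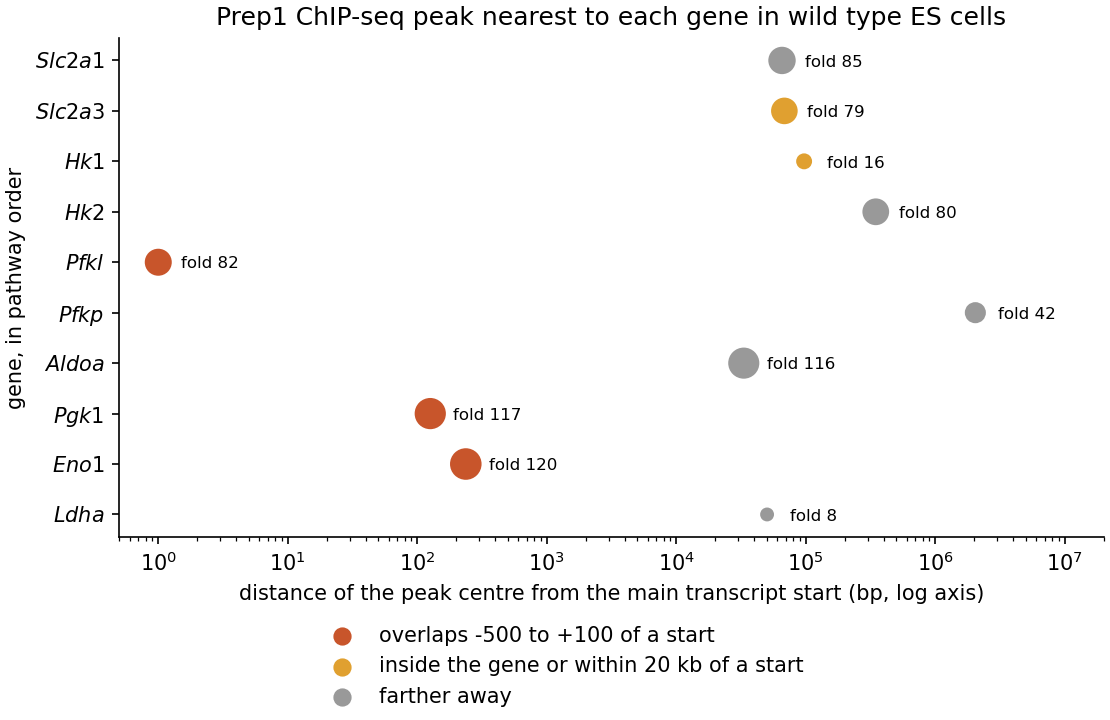
Distance in bp, on a log axis, from the main transcript start of each of the 10 genes to the centre of its nearest Prep1 peak in wild type ES cells, with marker area rising with the fold enrichment printed beside it. The peaks of Pfkl, Pgk1 and Eno1 lie within 237 bp of the start and the others beyond 33 kb.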

How the data were processed

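Mouse ES cells were analysed with 1 RNA-seq library per genotype and 1 Prep1 ChIP-seq peak list, and the input DNA sample was used only by the authors, for calling peaks. Per the labels, polyA+ libraries were made with TruSeq, and RSEM, DESeq, BWA and MACS were named without versions. The authors ran RSEM on paired reads of 50 bp with the Ensembl 63 gene models of mm9, and deposited for every gene its read count, in whole numbers, and its RPKM. The deposited RPKM is proportional to the count plus 1, and its KO/WT ratio is 1.12 times that of the counts. RPKM was listed as Inf for 85 genes, which were left out. The MACS peak list holds positions and a score, the fold enrichment rounded to a whole number, as deposited by the authors.

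The members and gene lists were chosen with earlier results of these data known. The study's ratio thresholds of 0.7 and 1.5 were used. The study kept genes with an RPKM above 1 among those detected in WT, whereas here higher calls need a KO RPKM above 1 and the background is every gene above 1 in either library. With 1 library per genotype, no test was run; reads gave exact 95% intervals, which cover counting error only, since reads are not independent molecules. The genes named are the 10 genes, Pknox1, the genes of the lists past a threshold or describing a step, and those nearest to a peak. The chromosome Y genes were not part of that rule and were chosen after their values were seen. Positions come from GENCODE M1 on mm9. Copies were searched with blastn 2.17.0 on main transcripts, and sequences were read from mm9 with pysam 0.24.0. Python 3.11.15, numpy 2.4.6, pandas 2.3.3 and scipy 1.17.1 were used, and edgeR 4.0.16 and DESeq2 1.42.0 in R 4.3.3 gave alternative scalings only. Calls and intervals were tested on simulated counts with counting error only and with set fold changes well past the thresholds. That checks the computation and not the calls in these data. The genes Pdp1, Pdp2, Vhl, Kdm3a and Tfcp2l1 of the lists were matched to no symbol in the tables.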

Additional observations from a re-analysis of the deposited data

How the results depend on the processing

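Pfkl stayed lower and Pfkp higher under 4 other scalings of the libraries, a scaling by chromosome, added RPKM of 0.1 or 1, symmetric thresholds and other RPKM filters. With thresholds of 0.5 and 2, 0 genes were lower. Of 70 alternative ratios of single genes 44 stayed within the counting interval, 26 moved beyond it and 0 reversed a call, although Hk1 ran from 0.979 to 1.06. The other scalings multiplied every ratio by up to 1.05 (log2 0.07), and TMM factors gave a summed RPKM ratio of 1.04. With these factors, and with the median ratio set to 1, the genes with an interval below 1 were 4, without Pgk1. The median log2 ratio stayed between -0.13 and -0.03 under them. Without Pgk1 and Eno1, an alternative chosen after seeing the data, the median log2 ratio changed sign to 0.014, the summed RPKM ratio was 1.02, and 3 genes had an interval below 1. Within 20 kb of the main transcript start only, also chosen afterwards, 3 genes had a peak. At 90% identity the near-identical copies were 21, of which 10 matched Ldha and 4 Aldoa. No paired analysis was possible because each genotype has 1 library, and no replicate could be left out.

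Depth limits Pgk1 (599 and 456 reads) and Eno1 (941 and 627) most, and the difference between lines, cultures or libraries cannot be told apart from that between genotypes. The peaks come from 1 immunoprecipitation, and RNA levels do not give enzyme amounts or flux.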
